A study of Rattus norvegicus with 6 samples.

Results

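The genes described here handle iron: Hamp, which encodes the peptide hormone hepcidin, and 9 genes of iron reduction, transport, storage and heme breakdown, namely Steap1, Steap3, Steap4, Slc11a1, Slc11a2, Slc40a1, Tfrc, Fth1 and Hmox1. They were chosen by gene name, with earlier results of these libraries known, and where several rows carried one name the protein-coding row with the largest total count over the 6 libraries was used, which gave 10 genes out of 43350 gene rows. The rows themselves were thus picked by name and total count, and not by the difference between the groups, but the list of names is not independent of that difference. Total RNA was measured by ribosomal RNA-depleted, paired-end sequencing of the ipsilateral dorsal root ganglia (DRG) from lumbar levels 4 to 6 of male Sprague-Dawley rats, 11 days after surgery. In the chronic constriction injury (CCI) group, of 3 libraries, ligatures were tied loosely around the left sciatic nerve, a standard model of neuropathic pain. In the sham group, also of 3 libraries, the nerve was exposed without ligation, and the labels give its treatment as none. Each library is described as 1 rat in the study's methods, whereas the labels speak of pooled samples, so the p-values measure the spread between these 6 libraries. A whole ganglion mixes neurons, satellite glia, Schwann cells, macrophages and vessels, so for every gene more cells of a type and more RNA per cell cannot be told apart.

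Hepcidin is best known as a hormone made by the liver. It binds ferroportin, the product of Slc40a1 and the known iron exporter of animal cells, and causes its internalization and breakdown, so that iron is kept inside macrophages and gut cells. Its transcription is known to be driven by bone morphogenetic proteins acting through Smad proteins and by interleukin-6 acting through Stat3. Iron bound to transferrin enters cells through the transferrin receptor, Tfrc, is reduced in endosomes by metalloreductases of the STEAP family and leaves the endosome through Slc11a2 (DMT1), while the related Slc11a1 (NRAMP1) works in the phagosomes of macrophages. Ferritin, built of heavy chains such as Fth1 and of light chains, stores the iron, and heme oxygenase 1, the product of Hmox1, releases it from heme.

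The libraries held between 75423546 and 87615743 counts, and a count of 3, taken here as the floor of detection, corresponded to between 0.0342 and 0.0394 CPM, the count scaled to a common library total of 1e6. Of the rows, 26663 had a mean of at least 0.5 FPKM, a level scaled by transcript length and library size, and were compared by the quasi-likelihood method of edgeR. A row was called higher or lower in CCI where the unadjusted p was under 0.05 and the log2 fold change reached 0.58 in either direction, which are the limits used in the study. Markers of sensory neurons, which define the labelled tissue, were abundant in all libraries, their summed level lying between 8004 and 9307 CPM, with none of 8 called. The sum hides differences in both directions. Tubb3 lay apart with CCI higher (log2 fold change 0.31), and Nefh (-0.54), Calca (-0.15) and Isl1 (-0.13) lay apart with CCI lower. Rbfox3, Snap25, Uchl1 and Avil overlapped between the groups. Among the 12 macrophage markers, 8 were called higher in CCI, and no marker tested of satellite glia, Schwann cells or endothelium was called. Of 5 skeletal muscle markers tested, 2 were called lower in CCI, Acta1 (log2 fold change -2.78) and Ckm (-4.13), where 1.26% of all rows were called lower. Both overlapped between the groups. Sham 1 stood apart in skeletal muscle transcripts, which summed to 375.3 CPM there, to 47.4 CPM in sham 3 and to between 7.99 and 22.7 CPM elsewhere. It also stood apart in erythroid transcripts, at 335.2 CPM against 97.1 to 194.9 CPM, and in neutrophil transcripts, at 23.9 CPM against 8.3 to 13.8 CPM.

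All 10 genes passed the filter on low values, and 3 of them, Hamp, Steap1 and Slc11a1, were called higher in CCI, where the same call was made for 2.57% of all rows tested. None was called lower, a call made for 1.26% of all rows. None of the 10 passed an adjusted p of 0.05 in edgeR (Benjamini-Hochberg over all rows tested), a limit passed by 0.0938% of rows, and 5 had an unadjusted p under 0.05, as had 10.7% of all rows. In 5 genes every CCI library lay above every sham library, as in 8.63% of all rows, and in 1 gene, Hmox1, every CCI library lay below, as in 8.7%. Hamp, Slc11a1 and Steap1 averaged under 0.5 FPKM in sham and passed the filter through their CCI level, so the counts over the 10 genes are a description. The median log2 fold change over the 10 genes was 0.19, against 0.01 over all rows, and 7 of the 10 were positive.

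**Figure D1:**
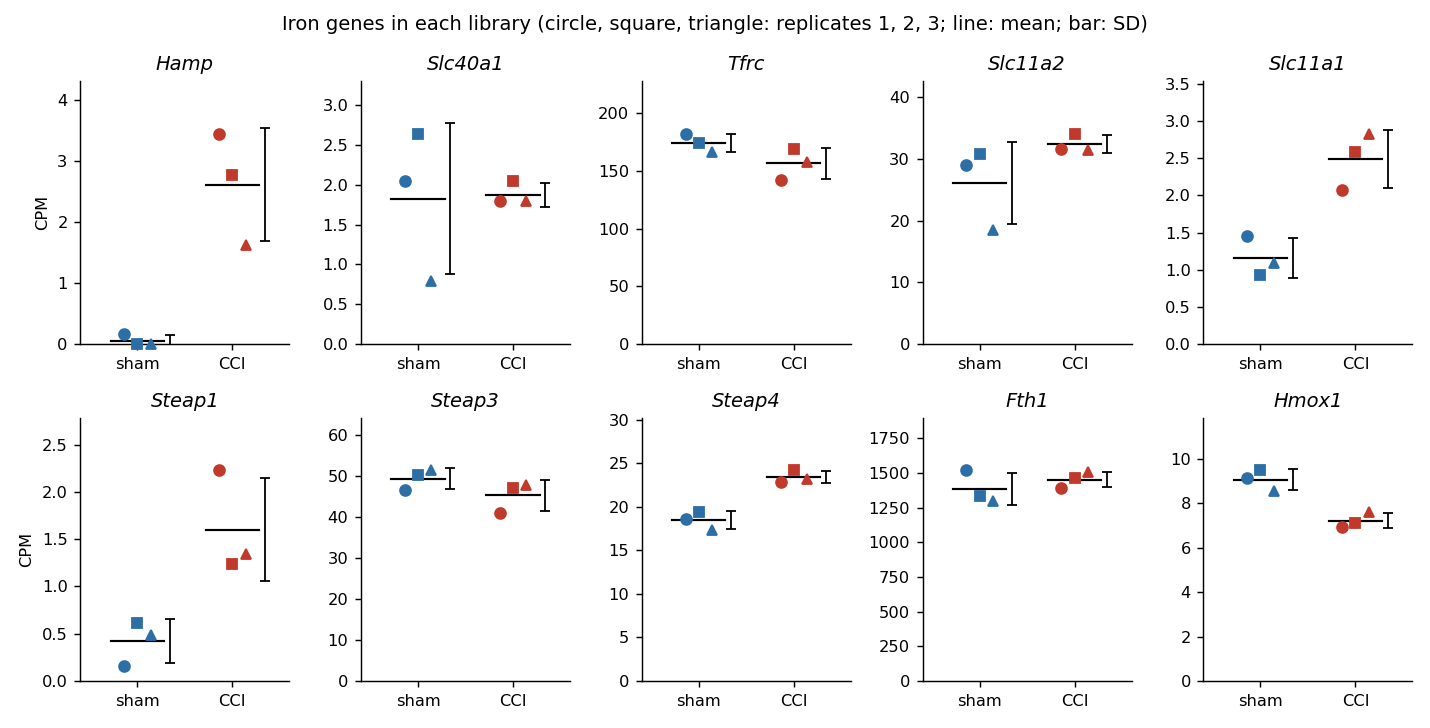
CPM (vertical axes, each from 0) of the 10 iron genes in 3 sham (blue) and 3 CCI (red) libraries, with circles, squares and triangles for replicates 1, 2 and 3, lines for means and bars for the SD. Hamp lies at or near 0 in sham and between 1.62 and 3.45 CPM in CCI, while Tfrc, Steap3, Fth1 and Slc40a1 overlap between the groups.

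Hamp lay on chromosome 1 (89368021 to 89369960, minus strand, coordinates as deposited, on the rat genome release V101 of the study's methods). It had 280, 224 and 123 counts in CCI 1 to 3, or 3.45, 2.78 and 1.62 CPM. Sham 1 held 14 counts, or 0.16 CPM, and sham 2 and sham 3 held 0. The groups did not overlap, and the lowest CCI library stood 10.1-fold above the highest sham library. The mean was 2.62 ± 0.928 CPM in CCI and 0.0532 ± 0.0921 CPM in sham (SD, n = 3 each), a ratio of 49.2. The fitted log2 fold change was 5.54 with a standard error (SE) of 1.15 and a 95% interval from 2.79 to 8.29 (edgeR quasi-likelihood, unadjusted p = 0.0023, Benjamini-Hochberg adjusted p = 0.174). By size it ranked 17th among the 460 rows with a gene symbol that were called higher.

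The precision of the Hamp level is limited by few counts in sham and by the spread between libraries in CCI, where the SD was 35.5% of the mean. Exact Poisson 95% intervals cover counting error only and treat each count as independent. Reads were paired, and whether a fragment can add several counts is not stated, so the intervals may be too narrow. They ran from 3.06 to 3.88 CPM in CCI 1, from 2.43 to 3.17 in CCI 2 and from 1.34 to 1.93 in CCI 3. They did not overlap between CCI 3 and the other CCI libraries, whose highest level was 2.13 times the lowest. In sham 1 the interval ran from 0.0872 to 0.268 CPM, above the 0.0465 CPM that 0 counts allow in sham 2 and the 0.0447 CPM they allow in sham 3. Left out of the comparison, sham 1, with its muscle and erythroid transcripts, leaves a sham group with no Hamp count. The CCI mean was 69.0 times the floor of 3 counts in sham 2, 0.0379 CPM. That is no strict bound, as 0 counts allow up to 0.0465 CPM there.

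The neighbouring gene on the same strand, Usf2, which encodes a widely expressed transcription factor, lies upstream, its end 1834 bases from Hamp. It lay between 25.6 and 30.1 CPM in all 6 libraries, with a log2 fold change of -0.09 (SE 0.08, edgeR unadjusted p = 0.291, Benjamini-Hochberg adjusted p = 0.768). Hepatocytes are the textbook source of hepcidin, and the hepatocyte markers were close to 0 in every library. The 8 markers found summed to between 0.565 and 0.875 CPM in CCI and between 0.456 and 0.972 CPM in sham, and none passed the filter. Fga, a fibrinogen chain, had no count in any library, and albumin (Alb) stayed at 0.454 CPM or below. Apoc3, an apolipoprotein, was the 1 hepatocyte marker whose groups did not overlap, with 0.234, 0.199 and 0.408 CPM in CCI and 0.137, 0.151 and 0.133 CPM in sham, and the part of such cells in the Hamp difference was not tested.

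The promoter of Hamp is shown because it is the best known control region of an iron gene. The window runs from 250 bases before to 50 bases after the start of the transcript, is taken from RefSeq (assembly GRCr8, chr1:95300222-95300521, minus strand), and is written 5′ to 3′ on the strand of the gene. Capitals mark the matches to motifs searched on both strands: GGCGCC, the core of a bone morphogenetic protein response element, TTCNNNGAA, the motif bound by STAT factors, TGANTCA, the motif bound by AP-1, and TGACNNNGC, the core of the antioxidant response element.
Hamp promoter: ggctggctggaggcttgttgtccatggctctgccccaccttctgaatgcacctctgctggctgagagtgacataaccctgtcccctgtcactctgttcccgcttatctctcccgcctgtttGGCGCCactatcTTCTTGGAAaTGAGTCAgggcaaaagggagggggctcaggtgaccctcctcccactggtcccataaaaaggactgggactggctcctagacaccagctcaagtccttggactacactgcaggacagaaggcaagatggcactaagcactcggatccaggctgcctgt
The Hamp window held GGCGCC at positions -129 to -124 from the start, TTCTTGGAA at -117 to -109 and TGAGTCA at -107 to -101, none of them overlapping, and no match to TGACNNNGC. Of 33469 rat promoter windows of this length, 11% held GGCGCC, 8.87% held TTCNNNGAA, 7.33% held TGANTCA and 12.1% held TGACNNNGC. Windows were found for 7 of the 10 genes, 8 windows in all. Beside Hamp, GGCGCC occurred in the Tfrc window, at -118 to -113, and a STAT motif, TTCCCGGAA, in the Steap4 window, at -66 to -58, which is shown for its match (RefSeq, GRCr8, chr4:27054720-27055019, minus strand).
Steap4 promoter: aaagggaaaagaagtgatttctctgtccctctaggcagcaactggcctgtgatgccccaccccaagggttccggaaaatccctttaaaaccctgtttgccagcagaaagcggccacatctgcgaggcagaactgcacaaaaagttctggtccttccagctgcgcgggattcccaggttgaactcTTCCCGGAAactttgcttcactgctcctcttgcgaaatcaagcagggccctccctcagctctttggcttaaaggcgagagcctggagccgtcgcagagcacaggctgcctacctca
The windows of Steap1, Steap3, Slc11a2 and Slc40a1 held none of the 4 motifs. Those of Slc11a1, Fth1 and Hmox1 were not analysed here. These matches describe letters in a window, not bound sites.

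Genes of the known inducing pathways of Hamp were taken from a list of 21 hepcidin regulators, of which 14 were tested and none was called. Il6, which encodes interleukin-6, did not reach the mean FPKM for testing. It had 2.02, 0.546 and 0.316 CPM in CCI 1 to 3 and no count in any sham library. Its CCI mean was 25.4 times the highest sham floor of 3 counts, 0.0379 CPM, which likewise is no strict bound. CCI 1 held most of it. For Il6 and Hamp alike the order of the CCI libraries was the same, CCI 1 being highest and CCI 3 lowest. That order was not particular to them, as it also held for Il6r, Stat3, Smad1 and the summed macrophage markers (503.7, 374.5 and 359.8 CPM). For Bmp6 it was reversed (5.02, 6.96 and 7.59 CPM). A link between Il6 and Hamp was not tested. Of the other regulators below the filter, Smad6 lay apart with CCI lower, at 0.518, 0.521 and 0.513 CPM against 0.707, 0.606 and 1.33 CPM in sham. Tfr2 lay apart with CCI higher, at 1.33, 1.37 and 1.34 CPM against 1.09, 1.1 and 1.1 CPM in sham. Bmp2, Hjv, Tmprss6 and Erfe overlapped between the groups.

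Il6r, the receptor subunit that binds interleukin-6, had 12.2, 11.4 and 9.7 CPM in CCI and 7.37, 7.29 and 8.38 CPM in sham. The groups did not overlap, and the log2 fold change of 0.53 (SE 0.13) was below the limit of size. Stat3, the transcription factor activated by the receptor and the most abundant of the tested regulators per length at a mean of 59.7 FPKM, lay between 298.1 and 326.6 CPM in CCI and between 250.8 and 280.1 CPM in sham, with a log2 fold change of 0.23 (SE 0.06). Both lay apart between the groups by less than the fold limit. Smad1, a transcription factor of the bone morphogenetic protein pathway, had 73.0, 53.5 and 52.2 CPM in CCI and 40.7, 35.3 and 44.4 CPM in sham. Its log2 fold change was 0.57 (SE 0.15), just under the limit, with an unadjusted p = 0.00866 and a Benjamini-Hochberg adjusted p = 0.271 in edgeR. Bmp6, the ligand through which the liver senses iron stores, overlapped between the groups, with a log2 fold change of 0.21 (SE 0.27). Il6, Il6r, Stat3, Smad1 and Bmp6 are given because they form the textbook pathways, and were picked after their values were seen. Il6st, also on the list of regulators, overlapped between the groups, with a log2 fold change of -0.13 (SE 0.11). Among other regulators tested, Hfe (log2 fold change -0.00), Id1 (-0.12), Smad7 (-0.15), Bmpr1a (-0.05), Bmpr2 (-0.13) and Acvr1 (0.39) were not called either. Of the 14 regulators tested, 8 had a positive log2 fold change.

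**Figure D2:**
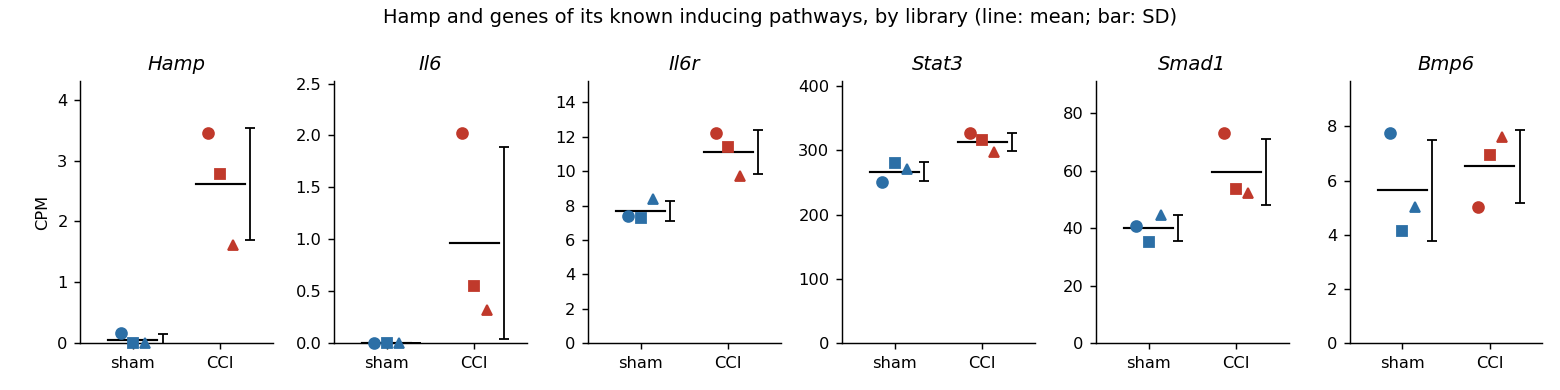
CPM (vertical axes, each from 0) of Hamp and of 5 genes of its known inducing pathways in 3 sham (blue) and 3 CCI (red) libraries, with circles, squares and triangles for replicates 1, 2 and 3, lines for means and bars for the SD. Il6 has no count in sham and 0.316 to 2.02 CPM in CCI, Il6r, Stat3 and Smad1 lie apart between the groups with smaller differences, and Bmp6 overlaps.

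Over the 6 libraries, the 3 rows with a symbol whose centred log2 CPM profile lay closest to that of Hamp, among 20072 compared, were Npy, LOC100912228 and Sprr1a. Their root mean square differences from Hamp were 0.93, 0.99 and 0.99 log2 units. Npy, which encodes neuropeptide Y, had 6018, 3280 and 2650 counts in CCI and 68, 51 and 58 in sham. LOC100912228 had 5413, 2851 and 2431 counts in CCI and 58, 49 and 56 in sham, close to those of Npy, so both rows may share reads and are uncertain as separate genes. Sprr1a, a small proline-rich protein known from injured sensory neurons, had 429, 133 and 115 counts in CCI and 6, 6 and 0 in sham. As with Hamp, the CCI libraries of all these rows were highest in CCI 1 and lowest in CCI 3.

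Slc40a1, the gene for the exporter that hepcidin removes, lay on chromosome 9 (52820683 to 52830457, minus strand). It had 1.79, 2.05 and 1.79 CPM in CCI and 2.05, 2.64 and 0.787 CPM in sham. The groups overlapped, and the sham libraries spanned the whole range, with sham 3 lowest. The log2 fold change was 0.04 (SE 0.42, 95% interval -0.97 to 1.05), a width that leaves differences inside it undetectable here. Single sham libraries moved it either way, to -0.32 without sham 3 and to 0.40 without sham 2. Transcript levels say nothing of the exporter protein, which is what hepcidin is known to act on.

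Tfrc, the receptor for iron-loaded transferrin, on chromosome 11 (71397383 to 71419223, minus strand), had 142.4, 169.5 and 158.0 CPM in CCI and 182.4, 174.5 and 166.6 CPM in sham. The second CCI library lay above the lowest sham library, so the groups overlapped. The log2 fold change was -0.16 (SE 0.08, 95% interval -0.34 to 0.03). Slc11a2, the endosomal iron transporter, on chromosome 7 (142025815 to 142062870, minus strand), had 31.6, 34.1 and 31.5 CPM in CCI and 29.0, 30.8 and 18.5 CPM in sham. Every CCI library was above every sham library, but the nearest values, 31.5 and 30.8 CPM, were close and sham 3 again was the lowest. Its log2 fold change was 0.31 (SE 0.19, 95% interval -0.14 to 0.76), within the spread between replicates, and it was 0.12 (SE 0.08) without sham 3. A second row of the same name, with 97 to 161 counts, gave a log2 fold change of 0.27 (SE 0.26).

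Slc11a1 lay on chromosome 9 (81655629 to 81666706, plus strand). Its level was 2.07, 2.58 and 2.83 CPM in CCI, from 168, 208 and 215 counts, and 1.45, 0.934 and 1.09 CPM in sham, from 127, 74 and 90 counts. The groups did not overlap, and the means of 2.49 ± 0.386 and 1.16 ± 0.263 CPM (SD, n = 3 each) stood in a ratio of 2.15. The log2 fold change was 1.11 (SE 0.24, 95% interval 0.52 to 1.69), with an edgeR unadjusted p = 0.00313 and a Benjamini-Hochberg adjusted p = 0.198. Without sham 1 the log2 fold change was 1.3 (SE 0.25). NRAMP1 is a macrophage protein, so macrophage markers are given beside it below.

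All 12 macrophage markers had a positive log2 fold change, with a median of 0.88, and their summed level was 503.7, 374.5 and 359.8 CPM in CCI and 232.6, 211.2 and 238.0 CPM in sham. Cx3cr1 (log2 fold change 1.11), Lyz2 (0.98), Cd68 (0.87) and Csf1r (0.75) were among the 8 called, while Adgre1 had 0.02. Per 1000 CPM of these markers, Slc11a1 stood at 4.11, 6.89 and 7.86 CPM in CCI and at 6.22, 4.42 and 4.58 CPM in sham, and on this scale the groups overlapped. Lyz2 held most of the marker sum, with 317.3, 212.6 and 233.0 CPM in CCI and 140.7, 119.4 and 126.0 CPM in sham. The scale thus rests largely on 1 gene. The order of the CCI libraries was opposite for the 2 measures, CCI 1 being highest in the marker sum and lowest in Slc11a1. The part of macrophage content in the Slc11a1 difference was not tested. Neutrophil markers, of which 4 were tested and none was called, summed to 13.8, 11.5 and 10 CPM in CCI and to 23.9, 9.44 and 8.3 CPM in sham, so that sham 1 was highest and the other sham libraries lay below all CCI libraries.

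Among the STEAP genes, Steap1 differed most between the groups and was the least abundant. Steap1, on chromosome 4 (25435873 to 25446461, plus strand), had 2.23, 1.24 and 1.34 CPM in CCI, from 181, 100 and 102 counts. In sham it had 0.16, 0.618 and 0.484 CPM, from 14, 49 and 40 counts. The groups did not overlap, the lowest CCI library standing 2.01-fold above the highest sham library, but the sham libraries themselves differed 3.88-fold, with sham 1 lowest. The means were 1.6 ± 0.545 and 0.421 ± 0.236 CPM (SD, n = 3 each). The log2 fold change was 1.93 (SE 0.53, 95% interval 0.66 to 3.20), at an unadjusted p = 0.00916 and a Benjamini-Hochberg adjusted p = 0.274 in edgeR. Without sham 1 the log2 fold change was 1.54 (SE 0.38), still called.

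Steap4, a metalloreductase also known from inflamed tissue, lay on chromosome 4 as well (23090029 to 23135354, minus strand). It had 22.9, 24.2 and 23.2 CPM in CCI and 18.6, 19.4 and 17.4 CPM in sham. The replicates were tight and the groups did not overlap, with a ratio of 1.27 and a log2 fold change of 0.34 (SE 0.07, 95% interval 0.16 to 0.52). Its edgeR unadjusted p = 0.00288 (Benjamini-Hochberg adjusted p = 0.191) was close to those of Hamp and Slc11a1, and it was left uncalled by the size of the change alone.

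Steap3, the main ferrireductase of the transferrin cycle in red cell precursors, on chromosome 13 (36257112 to 36290531, minus strand), had 40.9, 47.0 and 47.7 CPM in CCI and 46.4, 50.1 and 51.3 CPM in sham. The groups overlapped, and the log2 fold change was -0.12 (SE 0.08, 95% interval -0.32 to 0.07). A second row named Steap3, with 74 to 132 counts, had the opposite sign, at a log2 fold change of 0.25 (SE 0.3). Steap2, another member of the family taken from the list of uptake genes, lay between 9.23 and 10.5 CPM in CCI and between 5.8 and 8.61 CPM in sham, apart but uncalled at a log2 fold change of 0.49 (SE 0.17, edgeR unadjusted p = 0.0226). Together, Steap1, Steap3 and Steap4 summed to 66.1, 72.5 and 72.2 CPM in CCI and 65.2, 70.1 and 69.2 CPM in sham. The sum overlapped between the groups, Steap3 being the larger part of it.

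**Figure D3:**
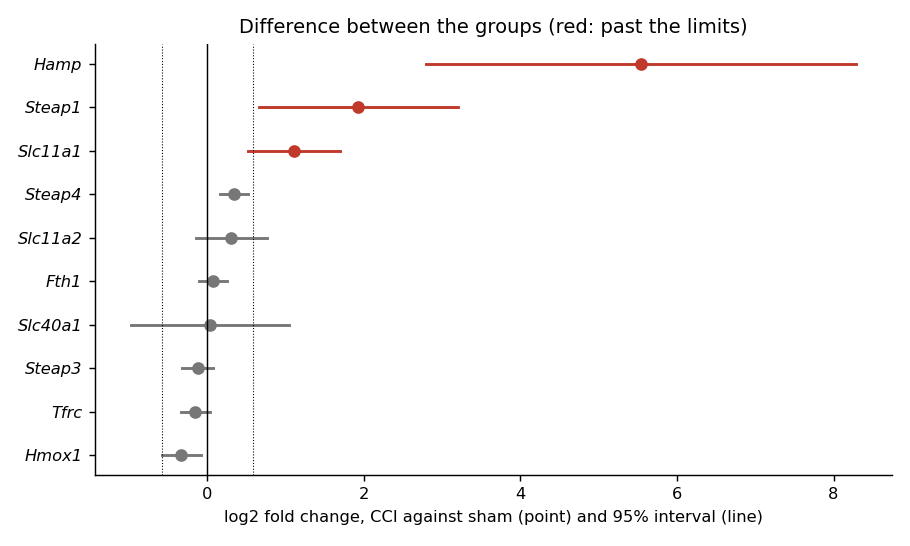
Fitted log2 fold change of CCI against sham (horizontal axis, points) with 95% intervals (lines) for the 10 genes (vertical axis), with dotted lines at the limit of 0.58 in either direction and red for genes past the limits. Hamp has the widest interval, from 2.79 to 8.29, Slc40a1 spans -0.97 to 1.05, and Fth1, Tfrc and Steap3 have narrow intervals that include 0.

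Fth1, the ferritin heavy chain, on chromosome 1 (226030938 to 226033228, plus strand), ranked 18th of all rows by mean FPKM. It had 1391.2, 1463.0 and 1503.8 CPM in CCI and 1518.9, 1336.5 and 1299.7 CPM in sham. The groups overlapped, and the log2 fold change was 0.07 (SE 0.07, 95% interval -0.11 to 0.25). On the opposite strand the gene lies within Fads2 and Best1. Fads2, a fatty acid desaturase, differed little (log2 fold change 0.06, SE 0.06). The Best1 row varied between 561 and 7188 counts across libraries (log2 fold change -0.67, SE 0.78), and since the use of strand in the counting is not stated, reads of Best1 and Fth1 cannot be told apart there.

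Reads of the ferritin light chain were spread over 5 rows for near-identical copies with a count, and the row named Ftl1 held between 6.92% and 11.9% of them, so single rows are uncertain. Summed over the 5 rows, the light chain stood at 196.8, 173.0 and 181.5 CPM in CCI and at 155.9, 159.8 and 167.9 CPM in sham. The sums did not overlap. The row with most of these reads, LOC100360087, had a log2 fold change of 0.19 (SE 0.07, edgeR unadjusted p = 0.0275, Benjamini-Hochberg adjusted p = 0.386) and was not called. Per length, the ratio of Fth1 to light chain was 5.0, 5.95 and 5.87 in CCI and 6.86, 5.98 and 5.43 in sham, which overlapped.

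Hmox1, heme oxygenase 1, on chromosome 19 (14508616 to 14515456, plus strand), was the gene of the 10 whose CCI libraries all lay below sham. It had 6.95, 7.12 and 7.6 CPM in CCI and 9.14, 9.49 and 8.56 CPM in sham. The means of 7.22 ± 0.336 and 9.06 ± 0.467 CPM (SD, n = 3 each) gave a ratio of 0.797 and a log2 fold change of -0.33 (SE 0.10, 95% interval -0.58 to -0.08). At an unadjusted p = 0.0185 and a Benjamini-Hochberg adjusted p = 0.347 in edgeR, it was not called, its change being smaller than the limit. Hmox1 is a classical target of Nrf2, encoded by Nfe2l2, which stood at 35.8 CPM in CCI 1 and at 13.0 to 15.9 CPM in the other 5 libraries. Cd163, the macrophage receptor that takes up hemoglobin bound to haptoglobin, overlapped between the groups, with 9.8, 6.13 and 4.97 CPM in CCI and 4.42, 5.02 and 11.5 CPM in sham.

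Levels were compared between genes per length, in FPKM. In sham, mean FPKM fell from Fth1 (1510.5 ± 140.4, SD, n = 3) to Tfrc (32 ± 1.69), Steap3 (13.8 ± 0.606), Hmox1 (5.23 ± 0.285), Steap4 (4.93 ± 0.278), Slc11a2 (3.62 ± 0.936), Slc40a1 (1.14 ± 0.594), Slc11a1 (0.346 ± 0.0835), Steap1 (0.295 ± 0.164) and Hamp (0.134 ± 0.232). Hmox1 and Steap4 overlapped, as did Slc11a1, Steap1 and Hamp with each other. In CCI the first 3 places were the same, and Hamp came next with 6.63 ± 2.34 FPKM, overlapping Steap4 at 6.31 ± 0.19 FPKM. Its libraries ran from 4.11 to 8.73 FPKM, so that Hamp also overlapped Slc11a2 and Hmox1, and its place is uncertain. The transcript of Hamp is short, so a small number of counts gave this level. The remaining genes in CCI were Slc11a2 (4.55 ± 0.205 FPKM), Hmox1 (4.22 ± 0.213), Slc40a1 (1.19 ± 0.098), Steap1 (1.14 ± 0.384) and Slc11a1 (0.764 ± 0.126), with overlaps between Slc11a2 and Hmox1 and between Slc40a1 and Steap1.

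**Figure D4:**
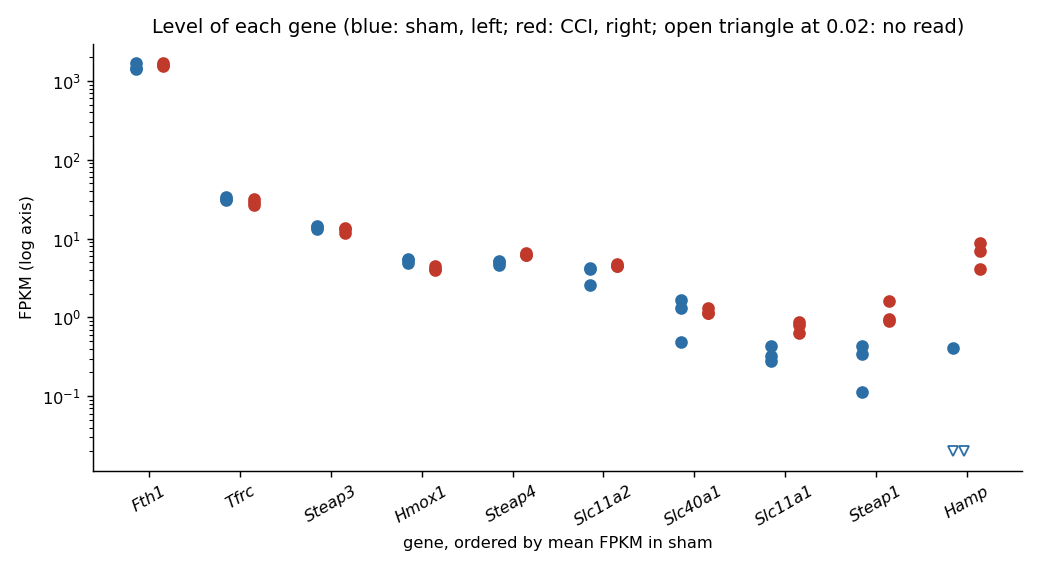
FPKM (log axis) of each gene in 3 sham (blue, left) and 3 CCI (red, right) libraries, ordered by the mean in sham, with open triangles drawn at 0.02 for the 2 sham libraries with no Hamp read. Fth1 lies between 1408.3 and 1670.5 FPKM over both groups. Hamp has the lowest mean in sham and a mean next to that of Steap4 in CCI.

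The rest of the iron pathway was read from a list of 62 further genes, of which 61 were found and 51 tested. None was called higher or lower at the limits that called 2.57% and 1.26% of all rows. Their log2 fold changes ran from -0.42 for Lcn2, a siderophore-binding protein, to 0.57 for Smad1, with a median of 0.01, and 47 of the 51 lay within 0.5 in size. An unadjusted p under 0.05 was reached by 7 of them, or 13.7%, against 10.7% of all rows. Those with a positive change were Smad1, Il6r, Stat3, Steap2 and Slc25a28, and Slc25a37 was among those with a negative one. None passed a Benjamini-Hochberg adjusted p of 0.05 in edgeR, whereas 2 did in DESeq2 (Smad1 and Il6r) and 0 in limma. The groups did not overlap, with CCI higher, in 11.8% of the 51 genes and, with CCI lower, in 7.84%, against 8.63% and 8.7% of all rows.

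By role, the medians were 0.09 over 14 hepcidin regulators, 0.04 over 10 uptake and export genes, 0.01 over 6 storage and sensing genes, -0.00 over 13 heme genes and 0.02 over 8 mitochondrial iron genes. The most abundant tested gene per length of each list overlapped between the groups except Stat3. Lrp1, a receptor for heme bound to hemopexin, had a mean of 25.9 FPKM and a log2 fold change of -0.07 (SE 0.10). Pcbp2, an iron chaperone, had 52.9 FPKM and 0.01 (SE 0.04). Slc48a1, a lysosomal heme transporter, had 31.7 FPKM and 0.03 (SE 0.07), and Iscu, the scaffold of iron-sulfur cluster assembly, had 87.0 FPKM and -0.25 (SE 0.11). Of the storage and sensing genes, Aco1 (0.07), Ireb2 (0.01), Ncoa4 (0.00) and Fbxl5 (-0.16, SE 0.07) stayed uncalled, as did Tf (-0.07) and the ferroxidases Cp (0.21) and Heph (0.22). Fbxl5 lay apart with CCI lower, at 49.1 to 53.8 CPM in CCI and 54.6 to 62.0 CPM in sham. The mitochondrial transporters Slc25a37 and Slc25a28, which both import iron, had log2 fold changes of opposite sign, -0.31 (SE 0.12) and 0.34 (SE 0.14). Nfs1 had 0 counts in sham 3 and between 974 and 1571 in the other libraries, so its value is uncertain.

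**Figure D5:**
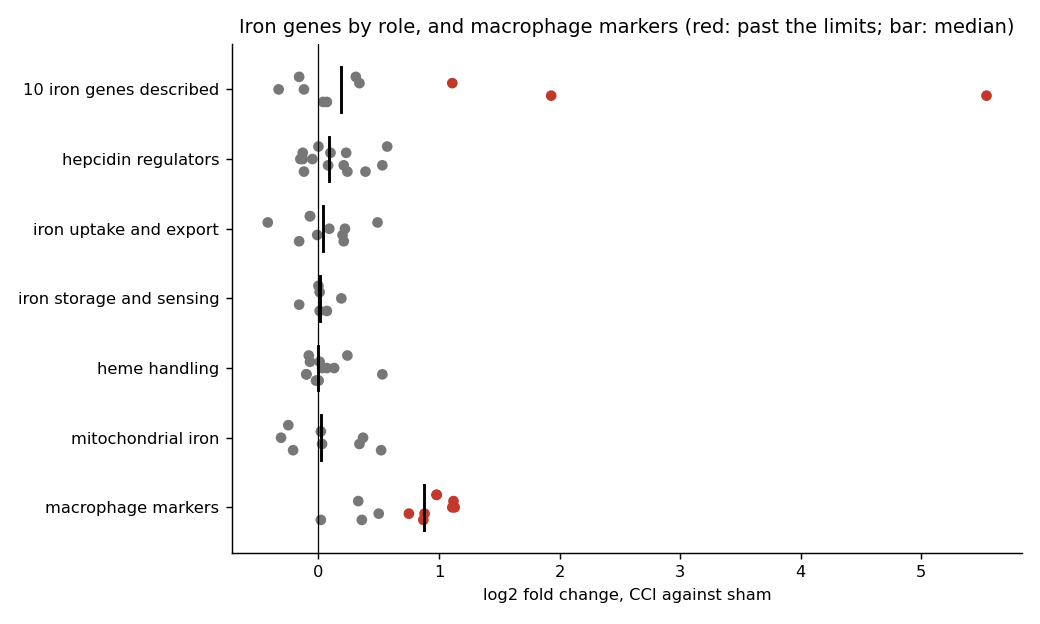
Log2 fold change of CCI against sham (horizontal axis) for the 10 iron genes, for 5 lists of other iron genes and for the macrophage markers (rows), with 1 point per gene, red for genes past the limits and a bar for the median. The 3 red points of the 10 genes are Hamp, Steap1 and Slc11a1, the 51 other iron genes hold none, and 8 of 12 macrophage markers are red around a median of 0.88.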

How the data were processed

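RNA from 3 CCI and 3 sham DRG libraries was sequenced in pairs after ribosomal RNA removal. The authors aligned reads with HISAT2 2.0 and assembled transcripts with StringTie 1.3.0 (versions from the submitters' processing notes). Their deposited table gives a count and an FPKM value per gene row and library. The counts are whole numbers, not normalized, and FPKM divides them by length and depth, with a count of 0 written as 0.0001. The dUTP protocol keeps strand, but its use in counting is not given in the sources used here. Rows can join several gene names.

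Counts were scaled by TMM (factors 0.9884 to 1.011) and fitted with edgeR 4.0.16 (R 4.3.3) by glmQLFit and glmQLFTest, without covariates, over rows whose FPKM averaged 0.5 or more. The Benjamini-Hochberg adjustment covered all 26663 rows. CPM is per total count, SE is the fold change divided by the root of F, and the ± values are SDs. The scripts were tested on simulated counts. The gene names, lists, marker genes and tests were chosen with earlier results of these data known, so no p is adjusted over a list and none is independent support. Named genes were the 10 genes, other iron genes called, the most abundant tested gene of each list and the 3 profiles closest to Hamp. Other genes named were picked after their values were seen. Alternatives were DESeq2 1.42.0, limma 3.58.1 on log2(FPKM + 0.1) and log2(FPKM + 1), other size factors, other filters, protein-coding rows alone, a replicate block, and each replicate left out. Promoters came from RefSeq (GRCr8), a build other than that of the deposited coordinates.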

Additional observations from a re-analysis of the deposited data

How the results depend on the processing

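The call of Hamp held in 14 alternative fits, with log2 fold changes from 2.72 to 10.71, the latter without sham 1, where sham has no count and the fitted value is no bound. Of 138 log2 fold changes of the 10 genes refitted, 135 kept direction and side of the limits. Slc40a1 reversed to -0.03 without CCI 2 and to -0.32 without sham 3, with a range of -0.32 to 0.40 over replicates left out, and Slc11a1 lost its call, at 0.39, in limma on log2(FPKM + 1). With rows kept at an average FPKM of 1 or more, 1 of the 10 genes was called higher, because Steap1 and Slc11a1 were no longer tested. With DESeq2, 3 of the 10 passed an adjusted p of 0.05, namely Steap1 (0.0178), Steap4 (0.0297) and Slc11a1 (0.0109), and Hamp did not (0.0749), while DESeq2 passed 751 of all rows against 25 in edgeR. Among the other iron genes, 1 was called higher with no filter (Il6) and 1 over protein-coding rows alone (Smad1), and with each replicate left out between 0 and 2 were, namely Smad1 without CCI 2 or sham 1, Smad1 and Il6r without CCI 3 or sham 3, and Steap2 without sham 2. The cause was not tested. The replicate numbers did not pair the libraries (correlations of deviations from -0.0547 to -0.0106 for shared numbers), and with the replicate block 3 of the 10 genes were still called higher, 617 rows in all higher and 318 lower, with 0 rows past an adjusted p of 0.05. With 3 libraries a group and at most 280 Hamp counts, small changes in Hamp, Steap1, Slc11a1 and Slc40a1 could not be measured.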

Other observations

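Annotation carried in the deposited table gave 3 further views of iron biology, looked up after the values were seen. Of 37 tested genes of the KEGG ferroptosis pathway, the form of cell death that depends on iron and lipid peroxidation, 1 was called higher, Cybb (log2 fold change 0.66), a subunit of the phagocyte NADPH oxidase, and 1 lower, Acsl6 (-0.69), an acyl-CoA synthetase, with a median of 0.02. Of 35 tested genes of KEGG mineral absorption, Steap1 was called higher and Trpm6 (-0.65), a magnesium channel, and Mt2A (-0.60), a metallothionein, were called lower. Of 41 tested genes annotated to cellular iron ion homeostasis, 3 were called higher, Hamp, Slc11a1 and AC115277, and 0 lower. Over all rows tested, 2.57% were called higher and 1.26% lower, against 2.7% and 2.7% of the ferroptosis genes, 2.86% and 5.71% of the mineral absorption genes and 7.32% and 0% of the iron homeostasis genes. These lists share 4 or 5 genes each with the 10 described.

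AC115277, a row without a gene description that is annotated to ferric iron binding, had 77, 41 and 59 counts in CCI and 19, 13 and 9 in sham. Its groups did not overlap, with a log2 fold change of 2.18 (SE 0.44, edgeR unadjusted p = 0.00202, Benjamini-Hochberg adjusted p = 0.169). It was chosen after its values were seen. Acp5, an iron-containing phosphatase known from macrophages and osteoclasts and likewise annotated to ferric iron binding, was also called higher. It had 171, 200 and 139 counts in CCI and 114, 83 and 108 in sham. Its log2 fold change was 0.81 (SE 0.21, edgeR unadjusted p = 0.00719, Benjamini-Hochberg adjusted p = 0.261). The other tested rows annotated to ferric iron binding or described as ferritin were not called, with log2 fold changes from -0.75 to 0.92. Of all rows tested, 2.57% were called higher.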
